A study of Neurospora crassa with 2 samples.

Results

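The mating genes of Neurospora crassa were described from RNA sequencing of mycelia of 2 genotypes, with 1 library each. They are 9 of the 9730 genes in the table, selected by locus tag. They comprise matA-1, matA-2 and matA-3, which lie together in the mat A idiomorph, the pheromone precursor genes ccg-4 and mfa-1, the pheromone receptor genes pre-1 and pre-2, the fertility gene fmf-1 and the perithecial protein gene app. They were chosen with their values in these libraries known, so the values below describe them and none is tested. In Δ3βG, gh1-1, gh3-3 and gh3-4 were deleted, which encode β-glucosidases that cleave cellobiose. Δ3βGΔncw-1 carried these deletions and also lacked ncw-1, a gene for a non-anchored cell wall protein. Both cultures grew for 20 h in minimal medium and then spent 4 h in Vogel's salts with 1% cellobiose. No intact strain and no culture from mating conditions is among the libraries. Neither the number of cultures behind a library nor how the strains were made is given in the labels.

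Neurospora crassa mates only between strains of opposite mating type, A and a. At the mating type locus these strains carry unrelated sequences, called idiomorphs, which encode the transcription factors that set mating identity. Each type makes its own pheromone and senses the other's. A mat A strain makes the CCG-4 peptide and uses the receptor PRE-1, whereas a mat a strain makes the lipid-modified MFA-1 and uses the receptor PRE-2. Fertilized female structures ripen into perithecia, the fruiting bodies. Strain names in this species often end in A or a for the mating type. Both genotype labels here end in a, but the labels do not say what the letter stands for. Read as a mating type, it does not account for the reads of matA-1, a gene of the mat A idiomorph, in Δ3βGΔncw-1. The mating type of the strains was not tested. Libraries are named below as labelled.

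Levels are in RPKM, read numbers scaled to gene model length and library size, with totals of 20510798 reads in Δ3βG and 20019350 reads in Δ3βGΔncw-1. The deletion of ncw-1 was visible in its RPKM, 435 and 2.62 in that order, and the 3 deleted β-glucosidase genes lay between 0.342 and 3.41 RPKM across both libraries. Intervals are exact 95% intervals from whole reads recovered from the RPKM, and they cover counting error only. With 1 library per genotype, no difference has a replicate check. Log2 ratios compare RPKM + 1 in Δ3βGΔncw-1 with that in Δ3βG, a scale on which differences of low genes appear smaller. The median log2 ratio of the 5988 genes that reached 10 RPKM in 1 library or both was −0.32, so ratios relative to that median gene are also given.

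The libraries differed in their mating type transcripts, by presence for matA-1 and ccg-4 and by level for mfa-1, pre-1 and pre-2. The genes tied to mat A identity, matA-1, ccg-4 and pre-1, had higher RPKM in Δ3βGΔncw-1. The mat a pheromone gene mfa-1, and pre-2, the gene of the receptor that mat a strains use, had higher RPKM in Δ3βG. Of the 9 genes, 4 reached 10 RPKM. In Δ3βGΔncw-1, 2 of them were higher by 2-fold or more and 2 lower, where 8.08% of all genes at that level were higher and 11.1% lower. The matA-1, ccg-4 and app genes were past 16-fold as well, where 0.985% of all genes were higher and 0.301% lower, but matA-1 was under it with RPKM scaled to equal sums, at a log2 ratio of 3.99, and with a pseudocount of 5 RPKM, at 2.03. The limit fixed the direction of matA-1, ccg-4 and app, which were below 10 RPKM in 1 library. Among all genes past 2-fold, 42.2% were higher, against 66.3% with ratios centred on the median gene. Of the other genes, pre-1, pre-2 and fmf-1 lay between 1 and 10 RPKM in their higher library, and matA-2 and matA-3 lay below 1 RPKM in both. In RNA from whole mycelia, fewer cells of a type and less RNA per cell cannot be told apart. The deletion of ncw-1 and the mating type transcripts differed between the same 2 libraries, so effects of one and the other cannot be told apart.

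**Figure D1:**
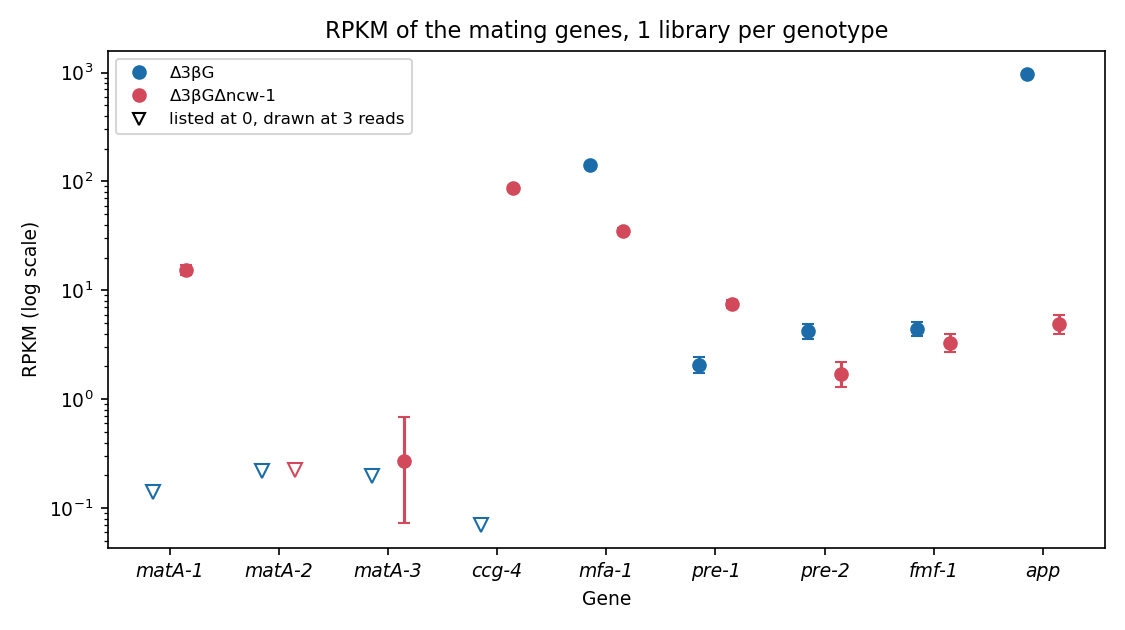
RPKM of the 9 mating genes on a log axis, 1 point per library, blue for Δ3βG and red for Δ3βGΔncw-1. Bars are exact 95% Poisson intervals of the reads, and open triangles mark genes listed at 0, drawn at the RPKM of 3 reads. The matA-1 and ccg-4 genes have points in Δ3βGΔncw-1 alone, at 15.4 and 87.9 RPKM, while app goes from 969 to 4.88 RPKM.

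Within the mat A idiomorph, reads came almost entirely from matA-1. It encodes the alpha-box protein that sets mat A identity. The RPKM of matA-1 (NCU01958) was 0 in Δ3βG and 15.4 in Δ3βGΔncw-1, from 321 or 428 reads. In the latter library 4170 genes had a higher RPKM. Set against a floor of 3 reads in Δ3βG, matA-1 was 109.6-fold higher in Δ3βGΔncw-1, and the exact lower limit of the fold was 88.6. Whether the genome of Δ3βG holds matA-1 was not tested, and a fold has no meaning for a gene that is absent. The other genes of the idiomorph, which in this species act after fertilization, were at or near 0. The RPKM of matA-2 (NCU01959) was 0 in both libraries, which allows up to 0.220 and 0.225 RPKM by the floor of 3 reads for a model of at least 50% of its span. The RPKM of matA-3 (NCU01960), which encodes an HMG box protein, was 0 in Δ3βG and 0.269 in Δ3βGΔncw-1, from 4 or 6 reads. With 4 reads the interval of matA-3 in Δ3βGΔncw-1, 0.0734 to 0.689 RPKM, overlapped the 0 to 0.242 RPKM that the reads of Δ3βG allow. With 4 reads the interval of the fold began at 0.676, and with 6 reads at 1.21, so whether matA-3 differed beyond counting error depends on its model length.

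The genes beside the idiomorph did not share the difference of matA-1. On the side of matA-3 they are NCU01961, with 2.37 and 4.24 RPKM, eat-5 (NCU01962), with 214 and 215 RPKM, and eat-6 (NCU01963), with 27.8 and 17.4 RPKM. On the side of matA-1, NCU01957 had 47.4 and 34.8 RPKM and eat-2 (NCU01956) had 63.5 and 62.6 RPKM, and the non-coding RNA gene NCU14009 was not analysed here. All 5 measured neighbours had reads in both libraries, and none was 2-fold apart. The mat a idiomorph was not analysed here, so the RNA of its gene cannot be set against that of matA-1.

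The pheromone precursor genes were opposite in the libraries. The gene of the mat A pheromone, ccg-4 (NCU02500), also known as a clock-controlled gene, had 0 RPKM in Δ3βG and 87.9 RPKM in Δ3βGΔncw-1, from 3692 reads. Set against a floor of 3 reads it was 1261-fold higher, with an exact lower limit of 1025. In Δ3βGΔncw-1 832 genes had a higher RPKM. Its neighbours on either side, NCU02499 and NCU02501, had 7.92 and 7.58 RPKM and 0.211 and 0.541 RPKM.

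The mat a pheromone comes from mfa-1 (NCU16992), which had 141 RPKM in Δ3βG, from 3350 reads, and 34.98 RPKM in Δ3βGΔncw-1, from 813 reads. It was 4.02-fold lower in Δ3βGΔncw-1, with an interval of 3.72 to 4.35, and its log2 ratio was −1.98, or −1.66 relative to the median gene. The mfa-1 gene was thus read in both libraries, whereas ccg-4 was read in 1. The genes on one side of mfa-1 were also lower in Δ3βGΔncw-1. NCU01257 had 4.25 and 0.938 RPKM and was 4.53-fold lower (3.06 to 6.92). The next gene, NCU01256, had 135 and 25.04 RPKM and was 5.40-fold lower (5.09 to 5.74). On the other side NCU01258 had 136 and 230.4 RPKM and NCU01259 had 6.87 and 8.62 RPKM. The direction beside mfa-1 therefore differed by side.

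Ratios of genes within a library do not depend on the scaling between libraries. In Δ3βGΔncw-1 the RPKM of ccg-4 was 2.51 times that of mfa-1 (2.33 to 2.72). In Δ3βG, with ccg-4 at 0 and mfa-1 at 141 RPKM, the interval of this ratio reached no further than 0.000610. Within Δ3βGΔncw-1, the RPKM of ccg-4 was 5.69 times that of matA-1 (5.08 to 6.40). The order of the pheromone genes was thus opposite in the libraries.

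The pheromone receptor genes, both low, followed the same split. The lower RPKM of each lay at a level also read for deleted genes. Of these, ncw-1 had 2.62 RPKM in Δ3βGΔncw-1, and gh1-1 had 1.09 RPKM in Δ3βG and 3.41 RPKM in Δ3βGΔncw-1. PRE-1 and PRE-2 span the membrane and signal through a G protein. The RPKM of pre-1 (NCU00138), whose product senses MFA-1, was 2.06 in Δ3βG, from 135 reads, and 7.51 in Δ3βGΔncw-1, from 481 reads. It was 3.65-fold higher in Δ3βGΔncw-1 (3.01 to 4.45). The RPKM of pre-2 (NCU05758), whose product senses CCG-4, was 4.23 in Δ3βG, from 152 reads, and 1.71 in Δ3βGΔncw-1, from 60 reads. It was 2.47-fold lower (1.82 to 3.39), with a log2 ratio of −0.95, or −0.63 relative to the median gene. The counting intervals of the libraries did not overlap for either receptor gene. The same held for gh1-1, deleted in both strains, with 50 and 153 reads and 3.14-fold higher RPKM in Δ3βGΔncw-1 (2.26 to 4.41). Non-overlap therefore does not set the receptor genes apart, and its share over all genes was not counted. Beside pre-1, NCU00137 had 33.3 and 46.8 RPKM and NCU00142 had 25.6 and 31.1 RPKM. Beside pre-2, NCU05757 had 12.3 and 9.55 RPKM and NCU05759 had 0.0393 and 0.0402 RPKM. None of these 4 neighbours was 2-fold apart. Among 2232 genes between 1 and 10 RPKM in their higher library, the ratio of RPKM was at least 2-fold higher for 7.66% and at least 2-fold lower for 19.9%.

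Within Δ3βG the RPKM of pre-1 was 0.487 times that of pre-2 (0.383 to 0.618), and within Δ3βGΔncw-1 it was 4.39 times that of pre-2 (3.35 to 5.85). The receptor ratio was thus 9.03 times as large in Δ3βGΔncw-1, with the lower RPKM of each receptor gene within the range read for the deleted β-glucosidase genes. The pheromone genes lay well above the receptor genes. In Δ3βG the RPKM of mfa-1 was 33.3 times that of pre-2 (28.3 to 39.4), and in Δ3βGΔncw-1 that of ccg-4 was 11.7 times that of pre-1 (10.6 to 12.9).

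**Figure D2:**
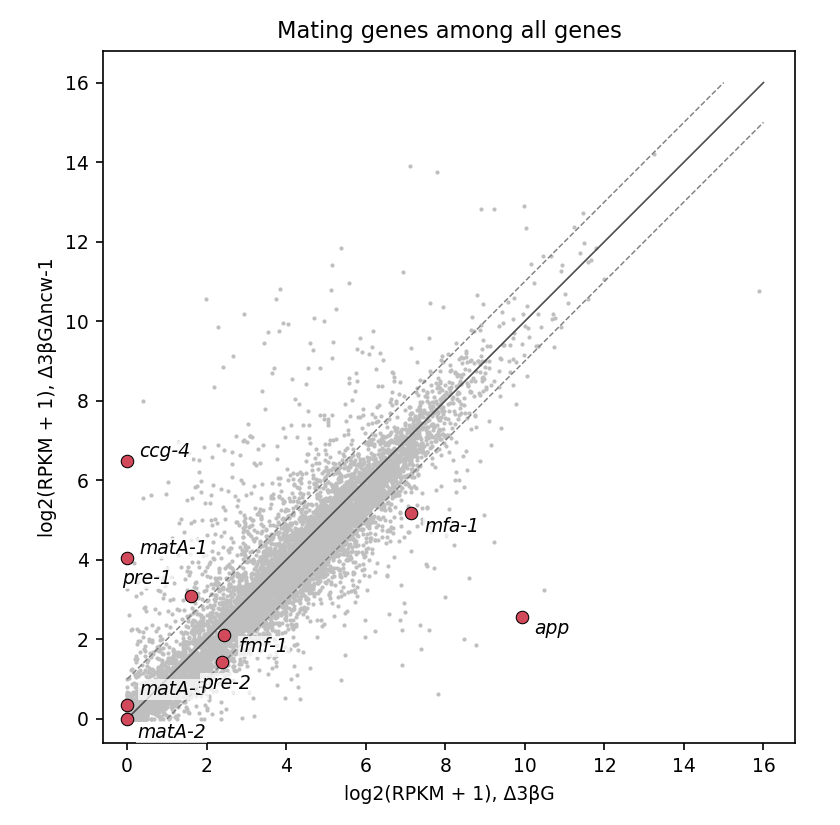
Log2 of RPKM + 1 of all genes in Δ3βG (x axis) and Δ3βGΔncw-1 (y axis), grey, with the 9 mating genes in red. The solid line marks equal values and the dashed lines a 2-fold difference. The ccg-4 and matA-1 genes lie on the left edge at log2 ratios of 6.47 and 4.04, app lies far below the line at −7.37, and fmf-1 lies within the dashed lines at −0.34.

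The fertility gene fmf-1 (NCU09387) encodes an HMG box protein needed for fertility as a female and as a male. Its RPKM was 4.44 in Δ3βG, from 168 reads, and 3.30 in Δ3βGΔncw-1, from 122 reads. It was 1.34-fold lower in Δ3βGΔncw-1 (1.06 to 1.71), and relative to the median gene its log2 ratio was −0.02. Of the 7 genes with over 10 reads, fmf-1 had the log2 ratio closest to 0.

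The gene app (NCU04533) encodes an abundant protein of perithecia. Its RPKM was 969 in Δ3βG, from 18927 reads, where 40 genes had a higher RPKM. In Δ3βGΔncw-1 its RPKM was 4.88, from 93 reads, and 6531 genes had a higher RPKM. It was 199-fold lower there (162 to 246). The next gene in the annotation, NCU04532, overlaps app and had 18.7 and 0.737 RPKM, 25.4-fold lower (17.4 to 38.5). Whether strand was used in counting is not given, so reads of app and NCU04532 may not be separated. On the other side NCU04534 had 44.0 and 30.01 RPKM, and the next gene, NCU04535, had 44.7 and 21.8 RPKM and was 2.04-fold lower (1.93 to 2.16).

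Other fruiting body genes did not share the high level of app in Δ3βG. The RPKM of poi-2 (NCU05768) was 0.458 and 0.610, and that of per-1 (NCU03584), the gene of a polyketide synthase for perithecial pigment, was 0.0671 and 0.185. The tyrosinase gene T (NCU00776) had 0.216 and 0.0492 RPKM. Of these 3 genes, per-1 and T were looked up after values had been seen. They were the 3 of 15 matched sexual development genes below 1 RPKM in both libraries, whereas 11 of the 15 reached 10 RPKM. Of the 5 genes set as fruiting body markers, the ascus development gene asd-1 was higher in Δ3βGΔncw-1, app was lower, asd-3 (NCU05597, 12.2 and 16.4 RPKM) and fsd-1 (NCU09915, 17.2 and 13.4 RPKM) were neither and poi-2 was below 10 RPKM. Their summed RPKM was 1001 in Δ3βG and 81.4 in Δ3βGΔncw-1, whereas without app that of the other 4 was lower in Δ3βG, at 31.9 against 76.5. Most of the latter difference came from asd-1, with 2.10 and 46.1 RPKM.

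Markers of conidiating cells, which form asexual spores, went both ways. Of 8 such markers 7 reached 10 RPKM. By the 2-fold rule eas, fl and acon-3 were lower in Δ3βGΔncw-1, ccg-6 (NCU01418, 1132 and 2792 RPKM) was higher and 3 were neither. Over all genes at that level 8.08% were higher and 11.1% lower. The summed RPKM of the 8 markers was 62420.1 in Δ3βG and 5315 in Δ3βGΔncw-1. The hydrophobin gene eas (NCU08457) had 60350.3 and 1746 RPKM. Without it the sum of the other 7 markers went the other way, from 2069.8 to 3569 RPKM, but ccg-6 made up most of that sum. Of the rest, con-6, con-13, fl and acon-3 had lower RPKM in Δ3βGΔncw-1, and con-8 and con-10 had higher RPKM there. Of the lower markers, fl (NCU08726) had 49.9 and 11.99 RPKM and acon-3 (NCU07617) had 43.9 and 2.07 RPKM. The markers con-8 (NCU09235, 487 and 514 RPKM) and con-6 (NCU08769, 284 and 157 RPKM) were less than 2-fold apart, and no marker was at 0. Their part in the difference of app was not tested.

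**Figure D3:**
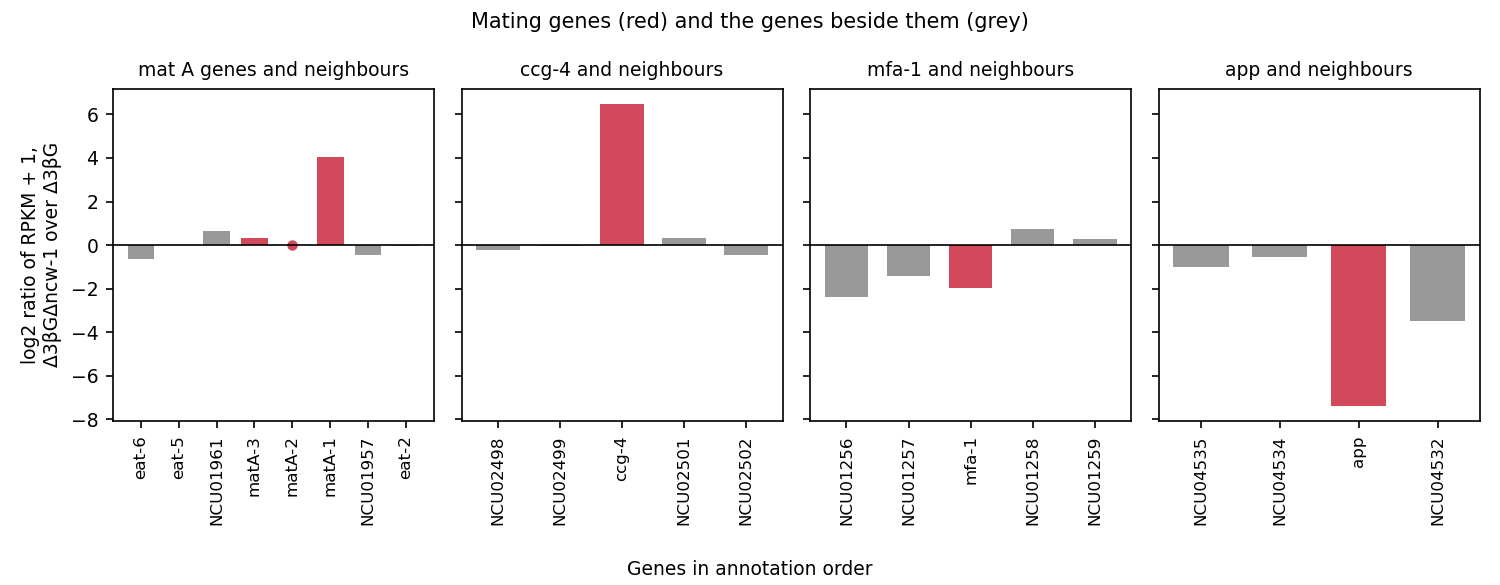
Log2 ratio of RPKM + 1 (Δ3βGΔncw-1 to Δ3βG, y axis) of mating genes (red bars) and the genes beside them (grey bars) in annotation order, without genes that have no value. The matA-1 bar, at 4.04, and the ccg-4 bar, at 6.47, stand alone among neighbours within 2-fold on this scale, whereas the bars of NCU01256 and NCU01257 beside mfa-1 and of NCU04532 beside app point the same way as theirs.

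The levels had a different order in each library. In Δ3βG the order from the top was app, mfa-1, fmf-1, pre-2 and pre-1, with the other 4 genes at 0. The intervals of fmf-1 (3.79 to 5.16 RPKM) and pre-2 (3.58 to 4.96 RPKM) overlapped, and those of the other neighbours in this order did not. In Δ3βGΔncw-1 the order was ccg-4, mfa-1, matA-1, pre-1, app, fmf-1, pre-2 and matA-3, with matA-2 at 0. There the intervals of app (3.94 to 5.98 RPKM) and fmf-1 (2.74 to 3.94 RPKM) overlapped, and those of the other genes with reads did not.

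Few of the shared pheromone signalling genes were 2-fold apart. Bound receptors release a G protein whose signal reaches the transcription factor PP-1 through a MAP kinase cascade that also serves fusion of vegetative hyphae. All 18 matched genes of this list had at least 10 RPKM. By the 2-fold rule 0 of them were higher, 17 were neither and 1 was lower, where 8.08% of all genes at that level were higher and 11.1% lower. Their median log2 ratio was −0.10, beside −0.32 over all genes at that level. The lower gene was gna-3 (NCU05206), a G protein alpha subunit, with 51.2 and 21.8 RPKM, 2.34-fold lower (2.20 to 2.50). Relative to the median gene its log2 ratio was −0.87, which is less than 2-fold.

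The members of this list with the highest mean RPKM were the G protein gamma subunit gene gng-1 (NCU00041), with 226 and 211 RPKM, and the MAP kinase gene mak-2 (NCU02393), with 206 and 231 RPKM. They were followed by mek-2 (NCU04612), the gene of its activating kinase, with 136.7 and 132 RPKM, and the corepressor gene rco-1 (NCU06205), with 128 and 120 RPKM. The transcription factor genes pp-1 (NCU00340), with 143 and 100.5 RPKM, and adv-1 (NCU07392), with 97.5 and 148 RPKM, lie outside the rule for named genes and were picked with their values in view. The G protein alpha subunit gene gna-1 (NCU06493), likewise, had 90.04 and 59.8 RPKM. None of these 7 genes was 2-fold apart.

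Among 15 matched genes of sexual development, 11 reached 10 RPKM. In Δ3βGΔncw-1, 2 of these were higher by 2-fold or more, 0 lower and 9 neither. Over all genes at that level 8.08% were higher and 11.1% lower. The list's median log2 ratio was 0.13, beside −0.32 over those genes. The higher genes were asd-1 (NCU05598) and vib-1 (NCU03725). The RPKM of asd-1, whose product is a rhamnogalacturonase that acts on pectin, was 2.10 and 46.1, 22.005-fold higher (17.8 to 27.5), and its direction was fixed by the 10 RPKM limit. The transcription factor gene vib-1, which also acts in plant cell wall degradation and heterokaryon incompatibility, had 29.96 and 184 RPKM. The others with the highest mean RPKM were Asm-1 (NCU01414, 164 and 173 RPKM), ve-1 (NCU01731, 51.4 and 68.4 RPKM), sub-1 (NCU01154, 46.6 and 26.8 RPKM) and ff-7 (NCU04001, 28.3 and 35.2 RPKM).

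Genes of meiosis and meiotic silencing were mostly low. Of 9 matched genes, 4 were below 1 RPKM in both libraries and 2 reached 10 RPKM. In the whole table, without the deleted genes, 5988 of 9726 genes met the 10 RPKM limit. By the 2-fold rule 1 of the 2 genes was lower and 0 higher, beside shares of 11.1% and 8.08% among the 5988. The recombinase gene mei-3 (NCU02741) had 22.3 and 7.02 RPKM and was 3.17-fold lower (2.72 to 3.71), with a log2 ratio of −1.22 relative to the median gene. The exonuclease gene qip (NCU00076) had 28.5 and 15.05 RPKM. The others with the highest means were dcl-1 (NCU08270, 8.08 and 4.54 RPKM), mus-25 (NCU02348, 7.91 and 3.64 RPKM) and spo11 (NCU01120, 0.940 and 1.07 RPKM). The gene tol (NCU04453) is needed for the vegetative incompatibility between mat A and mat a strains. It had 2.35 and 5.19 RPKM and was 2.20-fold higher in Δ3βGΔncw-1 (1.83 to 2.66). Its log2 ratio was 0.88, and it lay below 10 RPKM in both libraries, so the 2-fold rule was not applied to it.

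**Figure D4:**
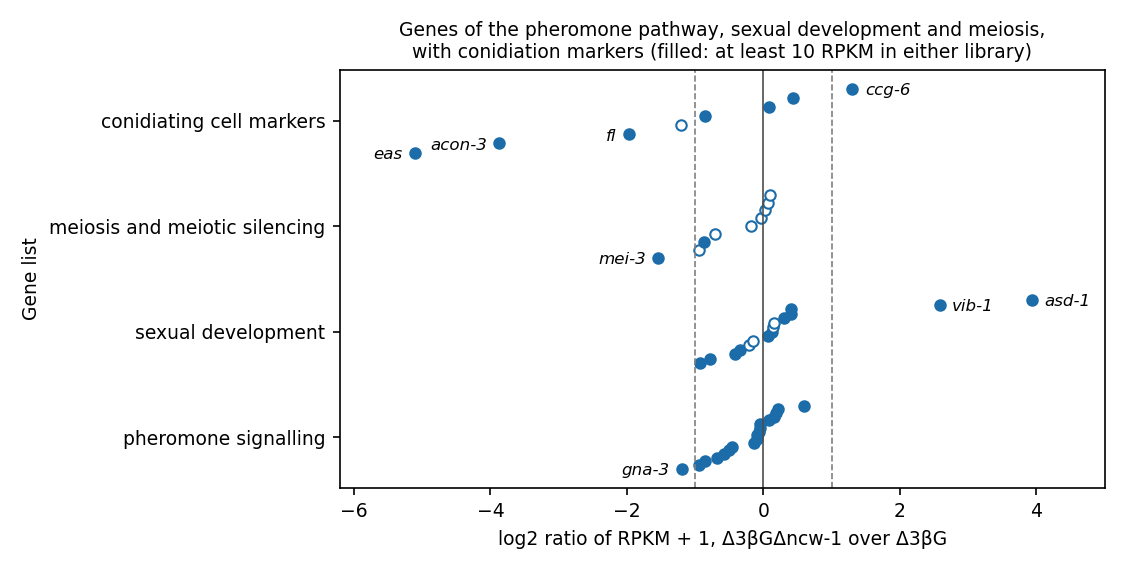
Log2 ratio of RPKM + 1 (Δ3βGΔncw-1 to Δ3βG, x axis) of each gene in 4 lists (y axis); filled points reached 10 RPKM in 1 library or both and dashed lines mark 2-fold. Pheromone signalling genes sit between −1.19 and 0.59, with gna-3 past the left line, while vib-1, asd-1, mei-3 and 4 filled conidiation markers lie past a line in their lists.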

How the data were processed

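The authors deposited RPKM for 9730 genes, 1 column per library, per the file headers. Tools named in the submitters' processing notes, without roles, are DESeq 1.5.1, HTSeq 0.5.4p2 and TopHat2 2.0.8b. The build, annotation and strand setting are not stated there or in the labels. Symbols and gene order came from the RefSeq gene table of assembly NC12, which matched 9729 genes. Because the build is not stated, no coordinates are printed.

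From the RPKM, library totals and whole reads were recovered (tolerance 1e-06 reads plus 1e-09 of the read number), a step tested on simulated data. Intervals rest on the smallest model length that fitted, from 50% of the gene's span upward. Of 8 members with reads, 6 had 1 solution. Fold intervals are exact and conditional on summed reads. A gene at 0 has a floor of 3 reads. Intervals and floors hold no variation between cultures, and reads are not independent molecules.

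A 2-fold rule on log2(RPKM + 1) was applied to genes that reached 10 RPKM in 1 library or both, leaving out the 4 deleted genes. Lists were matched by symbol. The pheromone maturation list matched 0 genes. The so gene was counted under signalling alone. Genes named were the members, the 3 genes on each side of mat A, list genes past 2-fold with up to 4 others of highest mean RPKM, the 3 genes nearest each member in both libraries and up to 10 genes at 0 in 1 library. Other neighbours, per-1, T and the remaining conidiation markers were looked up after values had been seen. Members and lists were chosen with earlier results of these data known. Alternatives were other pseudocounts, scalings, minimum levels, a 4-fold rule and the largest model length. Python 3.11.15, scipy 1.17.1 and pandas 2.3.3 were used.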

Additional observations from a re-analysis of the deposited data

How the results depend on the processing

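No log2 ratio of a member changed sign under the 5 alternatives tried for it, with matA-2 left out because it was at 0 in both libraries. With a pseudocount of 0.1 RPKM the log2 ratio was 7.28 for matA-1, 9.78 for ccg-4 and 1.82 for pre-1. With 5 RPKM it was 2.03 for matA-1, 4.22 for ccg-4, −1.87 for mfa-1, 0.83 for pre-1, −0.46 for pre-2 and −6.62 for app. Centred on the median gene it was 4.36 for matA-1, 6.80 for ccg-4, −1.66 for mfa-1, 1.80 for pre-1 and −7.05 for app. Centred on a trimmed mean these were 4.35, 6.79, −1.67, 1.79 and −7.06. With RPKM scaled to equal sums ccg-4 had 6.42. With the largest fitting model length matA-1 was 146-fold above the floor. Ratios within a library do not depend on the scaling. The log2 ratio of summed RPKM was −3.55 for conidiating cell markers and −3.62 for fruiting body markers. It turned to 0.79 without eas and to 1.26 without app, where ccg-6 and asd-1 made up most of the sums in Δ3βGΔncw-1. Both were alternatives chosen after seeing the data, as was the largest model length. Of the 31 list genes that reached 10 RPKM, 2 were higher and 2 lower, where 8.08% of all genes at that level were higher and 11.1% lower. Either centring left 1 lower, a minimum of 50 RPKM left 1 higher and 1 lower, and a 4-fold rule left 0 lower. Over all 5988 genes that reached 10 RPKM, 484 were higher and 664 lower. The lower genes numbered 425 with a pseudocount of 5 RPKM, 343 with median centring and 347 with trimmed mean centring. A minimum of 50 RPKM gave 268 higher and 240 lower, and a 4-fold rule 204 higher and 127 lower. A larger pseudocount shrinks ratios of low genes by construction, and a higher minimum or fold leaves fewer genes. No paired analysis was possible because there was 1 library per genotype, and for the same reason no replicate could be left out.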

Other observations

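Of all genes, 4 were at 0 in Δ3βG and at 1 RPKM or more in Δ3βGΔncw-1, and 5 the other way round. The first were ccg-4, matA-1, NCU07224 (8.64 RPKM) and NCU08192 (1.02 RPKM). The second were NCU04867 (4.14 RPKM), NCU00852 (2.82 RPKM), NCU07770 (2.61 RPKM), NCU08089 (1.37 RPKM) and NCU11210 (1.08 RPKM). The mating genes ccg-4 and matA-1 had the highest levels among these 9.

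The genes nearest each member were found by the distance of log2(RPKM + 1) over the 2 libraries. The genes nearest matA-1 were NCU04400 (0.137 and 14.1 RPKM, distance 0.22), NCU05188 and NCU00763. Nearest ccg-4 were NCU09416 (0.331 and 46.4 RPKM, distance 1.00), NCU05848 and NCU09856. Nearest mfa-1 were NCU06153 (132 and 39.995 RPKM, distance 0.21), NCU03699 and NCU07748. Nearest pre-1 were NCU10038, NCU07083 and NCU12040, all within 0.18. Nearest pre-2 were NCU01568, NCU06874 and NCU04537, and nearest fmf-1 were NCU07864, cel-2 and NCU11128, all within 0.057. For app they were NCU09734 (1438 and 8.54 RPKM, distance 0.90), the deleted ncw-1 (distance 1.35) and NCU00848 (distance 1.55). The genes nearest ccg-4 and app were thus further away than those nearest matA-1, mfa-1, pre-1, pre-2 and fmf-1, and no such genes were sought for matA-2 and matA-3.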
